A study of Mus musculus with 6 samples.

Results

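This section describes the transcripts of 37 genes that encode structural proteins of the sarcomere, the contractile unit of striated muscle, in the tibialis anterior (TA), a limb muscle at the front of the shin. The genes were a given list of names, matched by symbol through their Ensembl identifiers to the 41025 genes in the expression tables, and all 37 were found. They were grouped by role into 11 thin filament genes, 2 genes of the titin system, 16 Z-disc genes and 8 genes of the M-band and the neighbouring A-band. RNA was sequenced from TA muscle of C57BL/6 mice aged 8 weeks, with 3 libraries labelled wild type and 3 labelled knockout of Mettl21e, a gene of the METTL21 family of protein methyltransferases. The libraries are described as biological replicates, but the labels do not say how the knockout allele was made or whether each library came from a separate mouse, so the p-values below measure only the spread between these libraries.

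In the sarcomere, thin filaments of actin and tropomyosin are anchored at the Z-disc, where α-actinin crosslinks them, and slide along myosin thick filaments, which are held together at the M-band by myomesins. Titin spans from the Z-disc to the M-band, and nebulin runs along the thin filament. Several of these proteins come in pairs, with one form typical of fast fibres and another of slow fibres, heart or developing muscle, and the TA of the mouse is a muscle of mostly fast fibres.

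Values are FPKM, fragments scaled by the length of the gene and by the total of the library. The libraries held 8476591 to 10856669 fragments, and the 37 genes together took 8.36% to 10.1% of them. The members' share was 9.47% ± 0.569 (SD, n = 3) under the wild-type label and 9.14% ± 0.687 (SD, n = 3) under the knockout label, a difference smaller than the spread between libraries. Mettl21e itself was not lower under the knockout label. It had 2.46, 0.309 and 1.23 FPKM under the wild-type label (libraries 1 to 3) and 1.64, 1.45 and 1.88 FPKM under the knockout label, from 8 to 63 fragments, with a log2 difference of 0.29 (SE 0.31) and an adjusted p of 0.988 in limma. The labels do not say which part of the gene was altered, and every direction given here is between labels. Of 10 fast fibre markers, 9 passed the filter described below. Their Myh4, the myosin heavy chain of type 2B fibres, had 3603 to 5082 FPKM, while Tnnc2, the troponin C of fast fibres, stood at only 0.374 to 1.45 FPKM. The fast troponins Tnnt3 and Tnni2 had 16431 to 19932 and 9739 to 11668 FPKM. Why the Tnnc2 value was so low was not tested, so it is not read here as the level of that transcript. Among 7 heart markers, Nppb and Mybpc3 were at 0 in all 6 libraries.

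The first sequences shown are those of the skeletal and the cardiac α-actin, Acta1 and Actc1, because the level of Actc1 varied widely between libraries while that of Acta1 did not, and such a difference can be read only where fragments of these close relatives can be told apart. The coding sequences, taken as the longest open reading frame of the longest annotated transcript (GENCODE vM21, mm10), (Acta1 on chromosome 8, 123891769 to 123894751, and Actc1 on chromosome 2, 114047282 to 114053548, both on the minus strand) are both 1134 bases long and are 86.2% identical, with 157 differing bases. Their first 120 bases follow, 5′ to 3′, with the 19 differing bases in capitals.

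Acta1: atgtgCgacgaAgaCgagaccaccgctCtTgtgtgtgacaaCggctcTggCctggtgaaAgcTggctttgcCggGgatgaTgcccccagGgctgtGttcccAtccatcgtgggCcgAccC
Actc1: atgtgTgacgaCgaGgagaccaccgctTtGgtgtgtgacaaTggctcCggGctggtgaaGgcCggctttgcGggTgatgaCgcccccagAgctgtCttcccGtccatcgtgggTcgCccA

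The longest run without a difference in the whole coding sequence was 29 bases, and no stretch of 50 bases in an annotated transcript of Actc1 occurred in another gene. For Acta1 2.02% of such stretches did, most often in Gm47692. Among all 37 genes, 28 shared no 50-base stretch with another gene. Tpm3 shared 23.2% of its stretches with other genes, most often with the related locus Tpm3-rs7, which was listed at 0 in all 6 libraries.

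Promoter sequence was available for 29 of the 37 genes in RefSeq's table for GRCm38.p6, in 38 windows from 250 bases before to 50 after a start site. It was not used for Actn3, Lmod3, Myom2, Myot, Myoz1, Myoz3, Neb and Tcap. Motifs were searched on both strands. The E-box CANNTG, the motif read by the myogenic factors of the MyoD family, was in 76.3% of the members' windows and in 72.3% of all 32851 windows. The motif TATAAA was in 15.8% and 13.6%. The MEF2 motif, bound by the muscle regulators of that name, was in 7.89% and 3.19%, the 3 member windows being those of Myom3, Myoz2 and Ttn. The CArG box, bound by serum response factor, was in 15.8% and 1.63%, namely in 6 windows of 5 genes: Acta1, Actc1, Ldb3, Myom1 and Nebl. Windows of 1 gene can overlap, and a match describes letters, not binding.

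The 100 bases before the start site are shown for the actin pair and for Myoz2 and Myom3, the 2 tested members with the widest range over the libraries, all 5′ to 3′ in the direction of the gene, with matches to the CArG, MEF2 and TATAAA motifs in capitals. They lie at chr8:123894776-123894875 (minus strand) for Acta1, chr2:114052876-114052975 (minus) for Actc1, chr3:123034988-123035087 (minus) for Myoz2 and chr4:135759615-135759714 (plus) for Myom3. The start sites are those of RefSeq. On the minus strand the GENCODE span of Actc1 begins at 114053548, so the Actc1 stretch lies inside that span. The span of Myoz2 begins at 123035015, so the Myoz2 stretch lies partly inside it. Distances below hold for the RefSeq start sites only.

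Acta1: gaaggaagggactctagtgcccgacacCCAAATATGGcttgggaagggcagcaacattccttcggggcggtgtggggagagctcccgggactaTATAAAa
Actc1: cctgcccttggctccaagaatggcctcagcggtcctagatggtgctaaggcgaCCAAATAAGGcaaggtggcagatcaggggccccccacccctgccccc
Myoz2: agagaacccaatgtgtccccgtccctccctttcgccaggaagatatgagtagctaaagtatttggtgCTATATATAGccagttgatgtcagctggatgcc
Myom3: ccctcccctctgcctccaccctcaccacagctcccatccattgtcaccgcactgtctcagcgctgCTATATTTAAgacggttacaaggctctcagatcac

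The actins each had a CArG box, starting 73 bases before the start site in Acta1 and 47 before it in Actc1. Myoz2 and Myom3 instead each had a MEF2 motif, 33 and 35 bases before the start site, and no CArG box in the window. A TATAAA match in the Actc1 window lay 34 bases after the start site, outside the stretch shown. E-boxes overlapped none of the capital letters shown. Those in the Myoz2 window began 22 and 12 bases before the start site, and the one in the Myom3 window 142 bases before it, outside the stretch shown.

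The levels of the 37 genes spanned a wide range. By mean over the 6 libraries, Acta1 was the highest at 16559 FPKM, followed by Tpm1 (7791), Tpm2 (4606), Tcap (3099) and Actn3 (3022). At the low end stood Mybph at 40.8, Palld at 18.5, Myom3 at 17.3 and Nebl at 0.564 FPKM. The order of genes depends on the gene length that the authors' processing used. The lengths recovered from the deposited values matched the mean length of a gene's annotated transcripts within 1 base for 23 of the 37 genes, and for 66.55% of tested genes that are in the annotation. For 13 members the longest annotated transcript was at least 2 times that length. Titin (Ttn), the giant spring of the sarcomere, was divided by 18817 bases although its longest transcript has 106824, so that its 537 FPKM corresponds to 94.6 per kilobase of longest transcript, and its rank among the 37 moves from 13 to 22. Nebulin (Neb), divided by 6126 bases against 22489, moves from 1090 to 296.9 and from rank 9 to 14. Levels of different genes are therefore compared below with this limit, whereas a comparison of the same gene between libraries does not depend on the length.

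**Figure D1:**
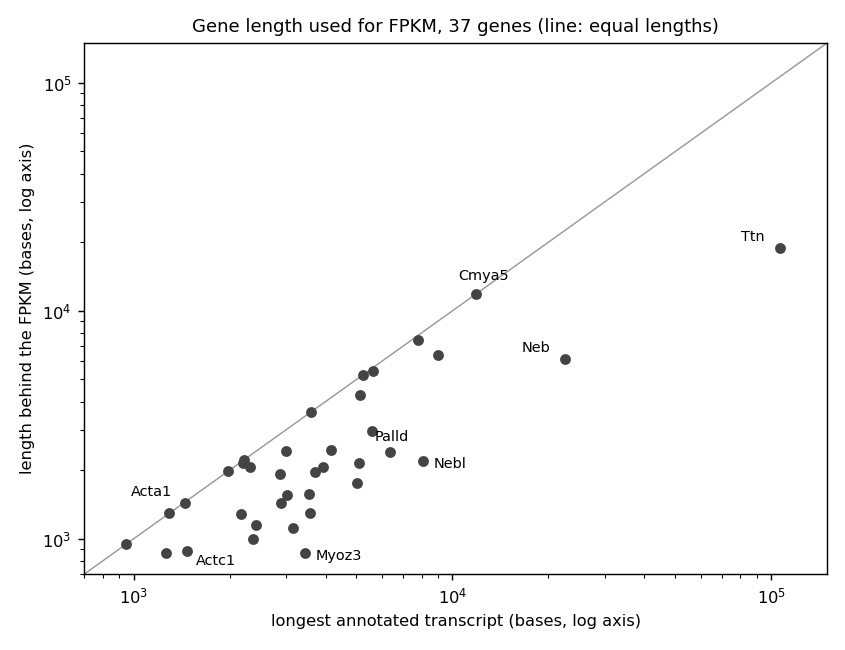
Gene length that turns fragments into FPKM (vertical, bases, log axis) against the longest annotated transcript (horizontal, bases, log axis) for the 37 genes, 1 point each, with a line of equal lengths. Ttn lies farthest below the line, at 18817 against 106824 bases, while Cmya5 lies on it at 11850.

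**Figure D2:**
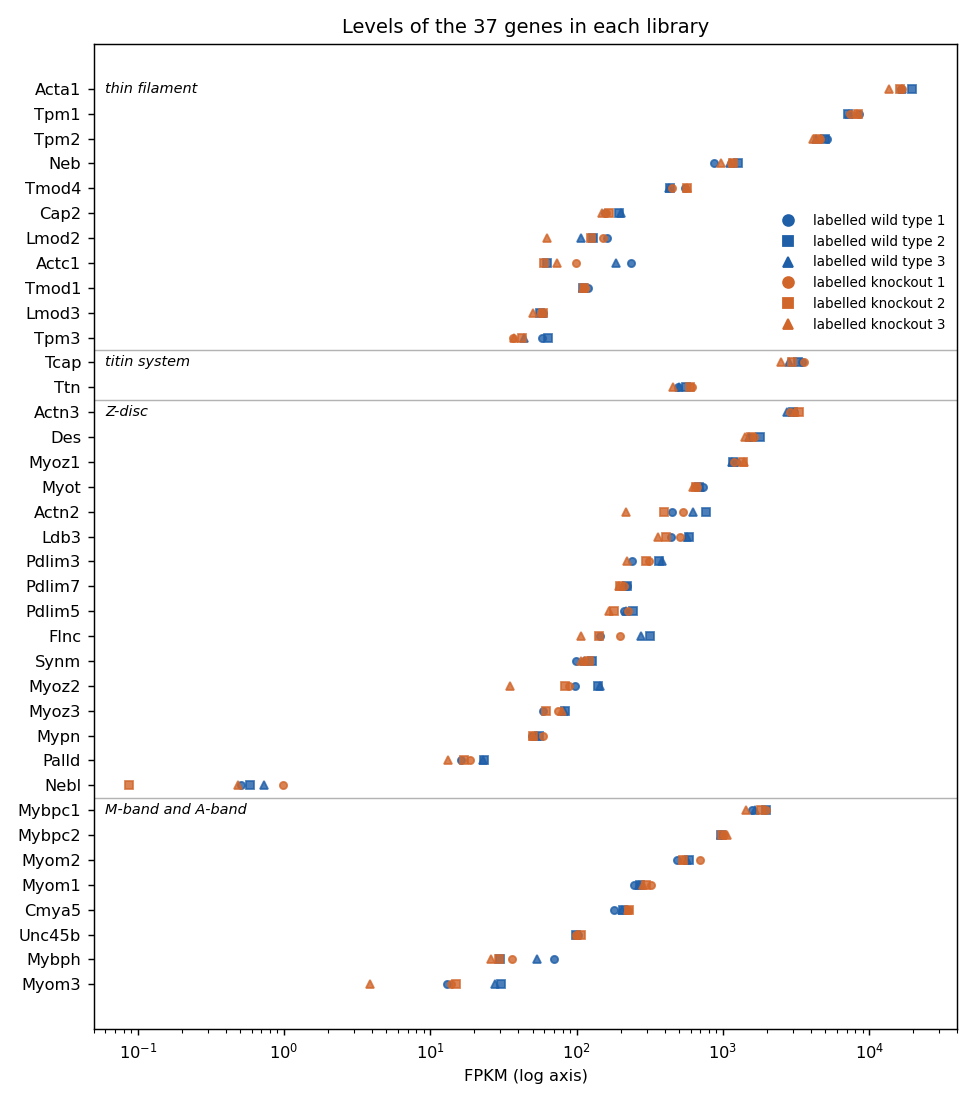
FPKM (horizontal, log axis) of each of the 37 genes in each of the 6 libraries, grouped by role and ordered by mean within a role. Blue symbols are the libraries labelled wild type and orange symbols those labelled knockout. The points of most genes lie close together, with the widest scatter among the tested genes in Myom3, Myoz2, Actc1 and Actn2.

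Differences between labels were tested with limma on log2(FPKM + 1) over the 11383 genes averaging 1 FPKM or more, and 36 of the 37 members passed that filter. No member had an adjusted p below 0.05. In this test 0% of all tested genes were called, the smallest adjusted p of any gene was 0.29, and those of the members ran from 0.988 to 0.9999. Of the 36 members, 13 were higher and 23 lower under the knockout label, with a median log2 difference of -0.08, beside 4933 higher and 6450 lower and a median of -0.02 over all tested genes. Over the alternatives tried 19 to 27 members were lower. At an unadjusted p below 0.05 there were 7 members, 2 higher (Myom1 and Cmya5) and 5 lower (Tpm3, Myoz2, Myom3, Mybph and Actn2). The share of all tested genes at that level was 4.59% in either direction, 1.28% higher and 3.31% lower. The members' count fell to 2 without library 3 labelled wild type (3.02% of tested genes), to 3 without library 2 labelled knockout (3% of tested genes) and to 4 without library 3 labelled knockout (3.57%), and it was 9 with limma voom on recovered fragments (4.11%).

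The libraries of the 2 labels did not overlap for 6 members, 3 higher under the knockout label (Myom1, Mybpc2 and Cmya5) and 3 lower (Tpm3, Myoz2 and Myot). Among all tested genes 9.48% did not overlap, 3.84% higher and 5.64% lower. After subtraction of each library's median the 3 higher members still did not overlap but only Myoz2 remained of the 3 lower ones. No share of all tested genes is given for that scaling, so these counts cannot be set against a background. With 2 libraries against 3 more genes separate: without library 1 labelled wild type 17 members did not overlap, beside 30.3% of tested genes, and without library 1 labelled knockout 16 members, beside 23.2%.

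By role, 8 of 11 thin filament genes were lower under the knockout label, with a median log2 difference of -0.12. Of the 15 tested Z-disc genes 12 were lower, also with a median of -0.12. In the M-band and A-band group 6 of 8 genes were higher, with a median of 0.05. Of the titin system, Ttn was higher and Tcap lower. None of these genes passed the test, so the counts describe these 6 libraries. They also shift slightly with the scaling, since Tmod1 and Mypn turned higher after median subtraction, and under quantile normalization Mypn turned higher and Tpm1 and Mybpc1 lower.

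**Figure D3:**
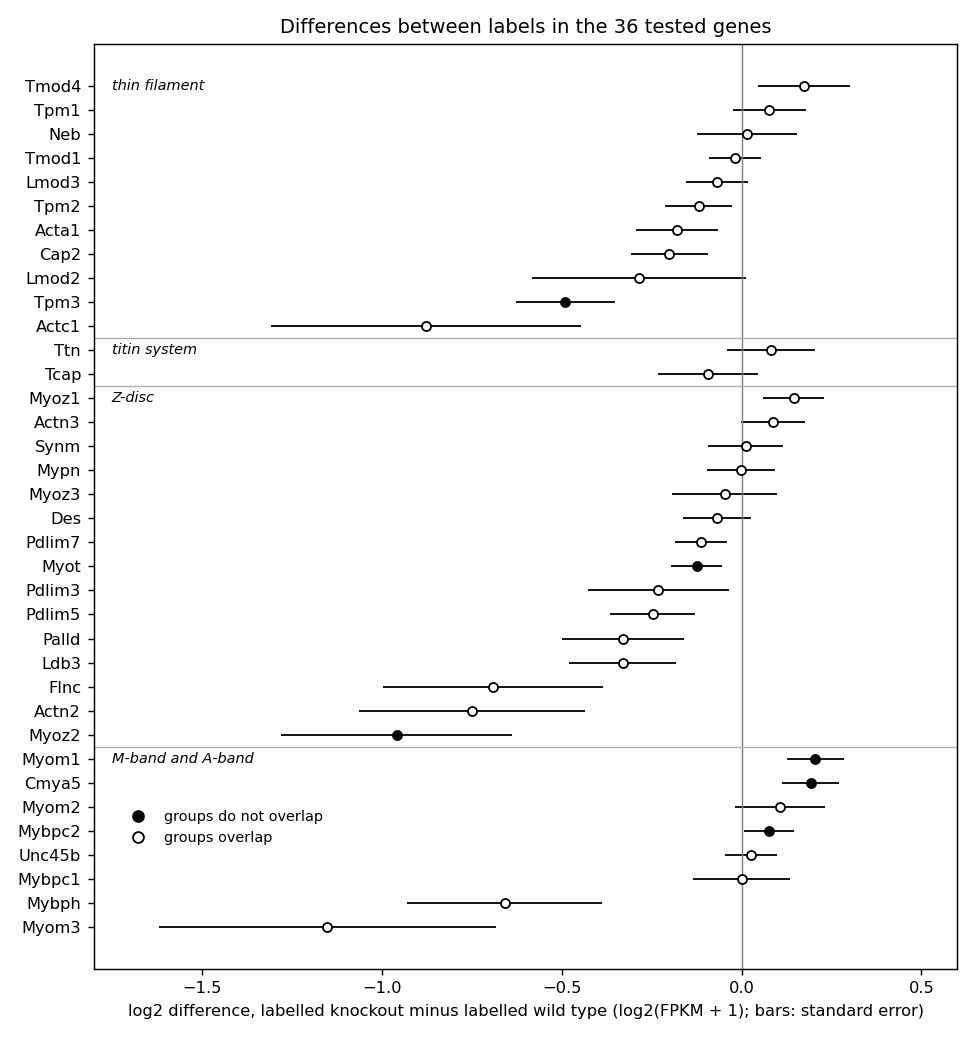
Log2 difference between labels (labelled knockout minus labelled wild type, on log2(FPKM + 1)) with its standard error for the 36 tested genes, grouped by role. Filled points are the 6 genes whose libraries do not overlap between labels. The values run from -1.15 for Myom3 to 0.21 for Myom1.

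In what follows, values come in the order of libraries 1 to 3, and where 3 values stand against 3 those of the wild-type label come first. Of the thin filament, skeletal α-actin Acta1, the main actin of adult fibres, had 16564, 19584 and 16590.3 FPKM under the wild-type label and 16841, 16080.3 and 13695 under the knockout label. Library 2 labelled wild type was the highest and library 3 labelled knockout the lowest, with overlapping groups and a log2 difference of -0.18 (SE 0.11). Cardiac α-actin Actc1, which adult skeletal muscle keeps at a low level, had 234, 63.0 and 185 against 99.2, 59.4 and 73.5 FPKM. Its spread under the wild-type label was wide, with library 2 as low as the libraries labelled knockout, and the difference of -0.88 (SE 0.43) had an unadjusted p of 0.0744 in limma. Leaving out library 1 labelled wild type gave -0.51, and leaving out library 2 of that label gave -1.45.

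The tropomyosins cover the binding sites for myosin on actin. Tpm1 had 8470.0, 7093 and 7203 FPKM under the wild-type label and 7348, 8378 and 8257 under the knockout label, and Tpm2 had 5134, 4954 and 4313 against 4616, 4477 and 4142. Both sets overlapped, with log2 differences of 0.08 (SE 0.10) and -0.12 (SE 0.09). Tpm3, whose muscle product is the slow-fibre tropomyosin, stood far lower, at 58.2, 63.3 and 43.8 FPKM under the wild-type label and 36.5, 42.2 and 37.1 under the knockout label. All libraries labelled knockout were below all labelled wild type. The means were 55.1 ± 10.1 and 38.6 ± 3.12 (SD, n = 3 each), and the log2 difference of -0.49 (SE 0.14) had the smallest unadjusted p of any member in limma, 0.00685, with an adjusted p of 0.988. The gene lies at chromosome 3, 90072649 to 90100902, on the plus strand (mm10).

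Tropomodulins cap the pointed end of the thin filament and leiomodins nucleate actin there. Tmod4, the main skeletal form, had 547, 435 and 425 FPKM under the wild-type label and 451, 567 and 569 under the knockout label. Tmod1 varied little, with 119.96, 109.7 and 111 against 114, 113 and 110.0. The first library labelled wild type and libraries 2 and 3 labelled knockout were the high ones for Tmod4, while Tmod1 showed no difference between labels larger than its spread (-0.02, SE 0.07). Lmod2 had 160.5, 129 and 106 against 152, 126 and 63.0 FPKM, and its low library was number 3 labelled knockout. Lmod3, the leiomodin needed for skeletal thin filaments, had 58.8, 56.0 and 59.0 against 57.2, 58.8 and 49.96. Nebulin had 872, 1273 and 1122 FPKM under the wild-type label and 1134, 1164 and 974 under the knockout label, so that the extremes of both directions were in the wild-type libraries. Cap2, a cyclase-associated protein that acts on actin monomers, ranged from 155 to 200.03 and from 149 to 167.

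In the titin system, Ttn had 495, 561 and 503 FPKM under the wild-type label and 618, 593 and 453 under the knockout label, from 72301 to 116360 fragments per library. Its cap protein telethonin, Tcap, which binds the end of titin at the Z-disc, had 3488, 3231 and 2843 against 3571, 2969 and 2491. For both genes library 1 labelled knockout was the highest of the 6 and library 3 labelled knockout the lowest. Neither difference, 0.08 (SE 0.12) and -0.09 (SE 0.14), was larger than that spread.

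At the Z-disc, the fast-fibre α-actinin Actn3 was steady at 3045, 3026 and 2719.8 FPKM under the wild-type label and 2888, 3328 and 3127 under the knockout label. Actn2, the α-actinin of all fibres and of the heart, was not, with 449, 766 and 627 against 533, 395 and 216. Libraries 2 and 3 labelled wild type were high and library 3 labelled knockout low, while library 1 labelled wild type lay within the range of the knockout label. Its log2 difference was -0.75 (SE 0.31, unadjusted p = 0.0431 in limma), and was -0.39 without library 3 labelled knockout. The gene lies at chromosome 13, 12269426 to 12340760, on the minus strand (mm10).

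Myozenins, also called calsarcins, tie α-actinin to calcineurin. Myoz1, the fast-fibre form, had 1233, 1165 and 1160.4 FPKM under the wild-type label and 1186, 1367 and 1392 under the knockout label. Myoz2, the form of slow fibres and heart, had 97.8, 139 and 143 against 88.1, 82.9 and 35.3. All libraries labelled knockout were below the lowest labelled wild type, and library 3 was far lower than the others. The means of Myoz2 were 127 ± 25.002 and 68.8 ± 29.1 (SD, n = 3 each), with a log2 difference of -0.96 (SE 0.32) and an unadjusted p of 0.0166 in limma. Without library 3 labelled knockout this difference was -0.54. The gene spans chromosome 3, 123006206 to 123035015, on the minus strand (mm10). Myoz3, another fast-fibre form, ranged from 59.2 to 82.6 FPKM under the wild-type label and from 61.9 to 78.9 under the knockout label.

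Filamin C (Flnc), an actin crosslinker of the Z-disc and the membrane that was singled out after its values were seen, had 145, 318 and 276 FPKM under the wild-type label and 198, 142 and 107 under the knockout label. As with Actn2, libraries 2 and 3 labelled wild type were high and library 1 was within the range of the knockout label. Its log2 difference was -0.69 (SE 0.30), and it had the smallest adjusted p that any member reached under the alternatives tried, 0.171 in limma without library 1 labelled wild type. The gene lies at chromosome 6, 29433256 to 29461883, on the plus strand (mm10).

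Myotilin (Myot), which binds α-actinin and filamin, had 734, 687 and 695 FPKM under the wild-type label and 660.2, 654 and 625 under the knockout label. The groups did not overlap, but the log2 difference was small, -0.12 (SE 0.07, unadjusted p = 0.109 in limma). Desmin (Des), the intermediate filament that links Z-discs side by side, had 1521, 1791 and 1510.4 against 1618, 1555 and 1419 FPKM, with overlapping groups. Its partner synemin (Synm) ranged from 98.5 to 127.0 and from 106.7 to 121.2.

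The other Z-disc genes overlapped between labels. Ldb3, also known as ZASP or cypher, which binds α-actinin, ranged from 442.1 to 588.8 FPKM under the wild-type label and from 360.7 to 506.4 under the knockout label, with a log2 difference of -0.33 (SE 0.15). The related PDZ and LIM domain genes Pdlim3, Pdlim5 and Pdlim7 had differences of -0.23, -0.25 and -0.11. The immunoglobulin-domain proteins palladin (Palld) and myopalladin (Mypn) had differences of -0.33 and -0.0012. The value of Mypn was 0 within its error (SE 0.10).

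Nebulette (Nebl), the short relative of nebulin best known from heart, was the member below the filter and was not tested. It had 12, 14 and 14 fragments under the wild-type label and 21, 2 and 9 under the knockout label, or 0.510, 0.589 and 0.724 against 0.989, 0.0876 and 0.485 FPKM. The exact Poisson interval (95%, counting error only) of the 21 fragments was 13.0 to 32.1 and that of the 2 fragments 0.242 to 7.22, so that the intervals of these 2 libraries of the same label did not overlap. The tested member nearest to the filter was Myom3, which at a mean of 17.3 FPKM lay well above it.

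The M-band is built from myomesins, which link neighbouring thick filaments. Myom1, found in all fibres, had 244, 269 and 267 FPKM under the wild-type label and 319, 296 and 285 under the knockout label. Every library labelled knockout was above every library labelled wild type, with means of 300.02 ± 17.7 and 260.0 ± 13.5 (SD, n = 3 each) and a log2 difference of 0.21 (SE 0.08, unadjusted p = 0.0301 in limma). The gene lies at chromosome 17, 71002633 to 71126856, on the plus strand (mm10), and an exon of it overlaps Myl12a on the other strand. Myl12a itself was lower under the knockout label, at 254.8, 309.5 and 300.7 against 244.1, 238.1 and 181.5 FPKM. No source used here says whether the counting used strand, so fragments in such overlaps cannot be assigned to 1 gene. This also holds for Tmod1, Neb, Cap2, Ttn, Des, Synm, Mybpc1, Mybpc2, Mybph, Cmya5 and Unc45b, 12 members in all.

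Myom2, the myomesin of fast fibres, had 485, 583 and 563 against 701, 534 and 530.5 FPKM, the highest being library 1 labelled knockout. Myom3, a myomesin of slower fibres, was the lowest tested member, with 12.9, 30.4 and 27.8 FPKM under the wild-type label and 13.9, 14.9 and 3.88 under the knockout label. These came from 415, 984 and 734 fragments against 403, 462 and 98. Libraries 2 and 3 labelled wild type were high, library 3 labelled knockout was low and the remaining 3 lay together. The log2 difference was -1.15 (SE 0.47, unadjusted p = 0.0382 in limma) and was -0.60 without library 3 labelled knockout. The gene lies at chromosome 4, 135759715 to 135815564, on the plus strand (mm10).

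Myosin-binding proteins C sit in the A-band and tie the thick filament to the thin one. Mybpc1, the slow form, which fast muscle also expresses, had 1585, 1954 and 1664 FPKM under the wild-type label and 1980.0, 1822 and 1429 under the knockout label, and its log2 difference was 0 within its error (SE 0.13). Mybpc2, the fast form, had 983, 965 and 964 against 1022, 986 and 1063. The groups of Mybpc2 did not overlap, yet the log2 difference of 0.08 (SE 0.07) had an unadjusted p of 0.297 in limma, and it was 0.05 without library 3 labelled knockout. Its other-strand neighbour Gm44646 had 0.56 to 2.2 FPKM.

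Myosin-binding protein H (Mybph), a smaller relative, had 70.0, 30.0 and 53.4 against 36.1, 29.4 and 26.1 FPKM. Libraries 1 and 3 labelled wild type were high and the second was among those labelled knockout, with a log2 difference of -0.66 (SE 0.27, unadjusted p = 0.0401 in limma). Leaving out library 1 labelled wild type gave -0.39, and leaving out library 2 of that label gave -0.99. Cmya5, or myospryn, a large protein that binds titin and desmin, had 180.4, 208 and 205 FPKM under the wild-type label and 223, 229 and 224 under the knockout label. Its groups did not overlap, and the log2 difference was 0.19 (SE 0.08, unadjusted p = 0.04 in limma) and 0.13 without library 1 labelled wild type. Unc45b, the chaperone that folds muscle myosin, was among the steadiest members, from 99.2 to 101.3 and from 98.9 to 107.6 FPKM.

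The members varied in distinct ways between libraries. The ratio of the highest to the lowest library had a median of 1.37 over the 36 tested members and of 1.40 over tested genes above 0 in every library. It was under 1.5 for 25 members (69.4%, beside 61.3% of tested genes) and at least 2 for 7 members (19.4%, beside 14.8%). Those 7 were Myom3 at 7.84, Myoz2 at 4.06, Actc1 at 3.94, Actn2 at 3.56, Flnc, Mybph and Lmod2. Library 3 labelled knockout held the lowest value of 20 of the 36 members (55.6%), but of 17.3% of all tested genes. Library 2 labelled wild type held the highest value of 13 members (36.1%, beside 21.3% of tested genes).

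Some patterns, chosen after the values were seen, recur among the 7 variable genes. Actn2, Myoz2, Flnc and Myom3 shared high values in libraries 2 and 3 labelled wild type and their lowest value in library 3 labelled knockout. Actc1 and Mybph instead were highest in library 1 labelled wild type, followed by library 3 of that label and library 1 labelled knockout, with library 2 labelled wild type among the low ones. Within the wild-type label, therefore, library 1 was low for the first 4 genes and high for the other 2.

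**Figure D4:**
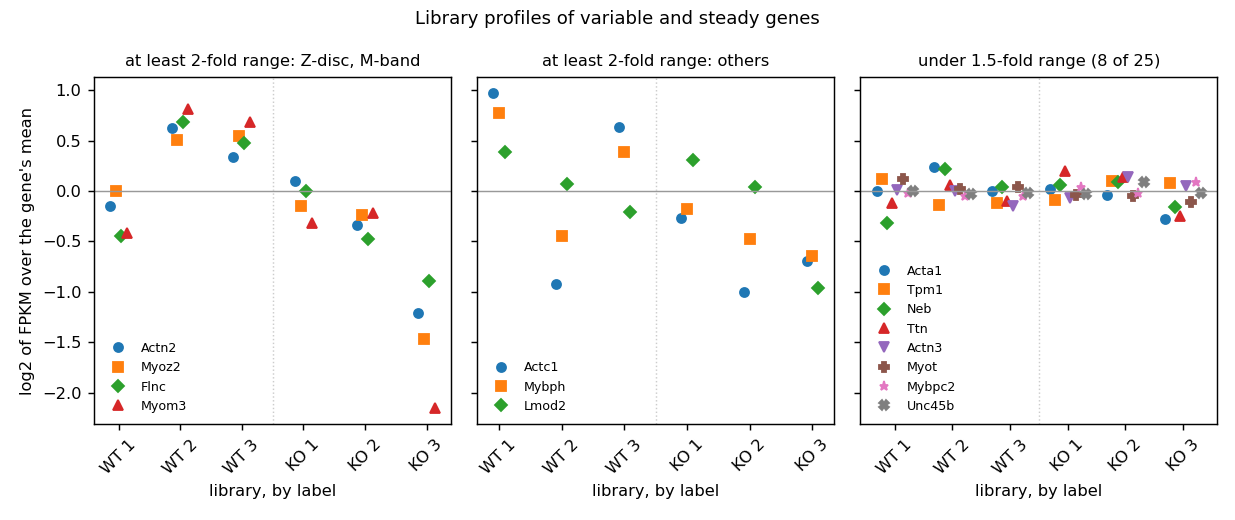
Log2 of each gene's FPKM over its own mean (vertical) in the 6 libraries (horizontal; WT, labelled wild type; KO, labelled knockout). The left panel shows Actn2, Myoz2, Flnc and Myom3, the middle one Actc1, Mybph and Lmod2, and the right one 8 of the 25 genes with a range under 1.5-fold. All 4 genes of the left panel have their lowest point in library 3 labelled knockout.

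Markers of other fibre types and cells were read beside these members. All 10 slow and oxidative fibre markers were lower under the knockout label, 6 of them at an unadjusted p below 0.05 in limma and 5 with groups that did not overlap. None had an adjusted p below 0.05. Of all tested genes 56.7% were lower, 3.31% lower at that unadjusted level and 5.64% lower without overlap. The summed level of the 10 markers was 8066 to 8896 FPKM under the wild-type label and 5844 to 7354 under the knockout label. Most of it was Mb, the myoglobin gene, with 6689, 6572 and 6376 against 5990, 5881 and 5232 FPKM. Myh2 and Myh7 are singled out here with their values known. Myh2, the heavy chain of type 2A fibres, had 925.8, 1638 and 1290 against 986.7, 973.0 and 296.6 FPKM, and was highest and lowest in the same libraries as Actn2. Myh7, the slow heavy chain, was at 7.23, 14.3 and 0.876 against 0.549, 0.650 and 0.714. In bulk tissue, fewer fibres of a type and less RNA per fibre cannot be told apart, and the part of fibre type in the values of Myoz2, Actn2, Flnc, Myom3 and Tpm3 was not tested.

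Fast fibre markers summed to 75582 to 87264 FPKM under the wild-type label and to 79003 to 82206 under the knockout label. Of the 9 tested, 6 were higher and 3 lower under the knockout label, and none was called. Of all tested genes 43.3% were higher. Only Myh1 had an unadjusted p below 0.05 in limma (0.0213, higher) and groups that did not overlap. It had 1881, 1841 and 1763 against 2753, 2255 and 1977 FPKM. The shares of all tested genes were 1.28% higher at that level and 3.84% higher without overlap. All 8 fibroblast markers were lower under the knockout label, 1 of them at an unadjusted p below 0.05 in limma (3.31% of all tested genes). Their sums in libraries 1 to 3 were 228.4, 470.4 and 455.0 against 236.1, 255.3 and 322.5. The 8 smooth muscle and pericyte markers summed to 228.1, 377.2 and 398.8 against 309.9, 337.4 and 295.9 FPKM, none at 0 in all libraries. The 6 endothelial markers summed to 104.5, 167.4 and 166.8 against 143.3, 123.2 and 139.1. The fibroblast, smooth muscle and endothelial sums were all highest in libraries 2 and 3 labelled wild type, where Actn2, Flnc and Myom3 were also high, and lowest in library 1 of that label, where those genes were not at their lowest. The 8 leukocyte markers summed to 3.01, 10.6 and 78.4 against 7.78, 2.73 and 10.7. S100a8 alone made up 70.8 of the sum in library 3 labelled wild type, where the next highest marker, Cd68, had 2.26. It also made up 6.95 of the sum in library 3 labelled knockout. The part of these cell types in the members' values was not tested.

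Beside Actc1, the 7 heart markers summed to only 10.8 to 14.7 FPKM under the wild-type label and 12.1 to 16.0 under the knockout label, with Nppb and Mybpc3 at 0 throughout and Myl7 at 0 in 5 libraries. The 7 markers of developing or denervated fibres summed to 8.59 to 12.5 and 8.77 to 12.1, their Chrng, the fetal acetylcholine receptor subunit, reaching at most 0.189. Neither sum was highest in library 1 labelled wild type, where Actc1 was highest. The part of heart muscle or of developing fibres in the Actc1 values was not tested.

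Ratios between related genes in the same library do not depend on the library's scaling, although the absolute ratio depends on the lengths used. Of 9 ratios, the smallest exact two-sided permutation p was 0.1, which is the smallest that 3 libraries against 3 allow, and the smallest p adjusted over the 9 was 0.45. Actc1 amounted to 1.41%, 0.321% and 1.11% of Acta1 under the wild-type label and to 0.589%, 0.369% and 0.536% under the knockout label. The means, 0.949% ± 0.564 and 0.498% ± 0.115 (SD, n = 3 each), overlapped in their spread (exact permutation p = 0.4). With the longest transcripts as lengths they would be 0.577% and 0.303%.

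The ratio of Actn2 to Actn3 was 0.147, 0.253 and 0.231 against 0.185, 0.119 and 0.0689, overlapping between labels (exact permutation p = 0.2). That of Myoz2 to Myoz1 was 0.0793, 0.119 and 0.123 against 0.0743, 0.0607 and 0.0253. These groups did not overlap, with means of 0.107 ± 0.0243 and 0.0534 ± 0.0253 (SD, n = 3 each; exact permutation p = 0.1, 0.45 adjusted). The log2 difference of this ratio was -1.12, and -0.65 without library 3 labelled knockout. Tpm3 made up 0.426%, 0.522% and 0.379% of the 3 tropomyosins under the wild-type label and 0.304%, 0.327% and 0.298% under the knockout label, again without overlap (exact permutation p = 0.1, 0.45 adjusted). In both of these ratios the gene with a slow-fibre product, Myoz2 or Tpm3, had the smaller share under the knockout label. Tpm3 has 16 annotated transcripts and was counted as a whole gene, so its slow-fibre product was not measured apart.

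Myom3 stood to Myom2 as 0.0267, 0.0522 and 0.0495 under the wild-type label and 0.0199, 0.0278 and 0.00731 under the knockout label, where library 1 labelled wild type lay below library 2 labelled knockout (exact permutation p = 0.2). The ratio of the slow to the fast myosin-binding protein C, Mybpc1 to Mybpc2, averaged 1.79 ± 0.213 and 1.71 ± 0.319 (SD, n = 3 each; exact permutation p = 0.8). Dividing by the longest transcripts turns it to 0.938 and 0.897, so the order of these genes depends on the length used. Lmod2 to Lmod3 averaged 2.28 and 2.02 (exact permutation p = 0.6), and Tmod1 to Tmod4 0.244 and 0.215 (exact permutation p = 0.3). Nebl to Neb was at most 0.000872 in any library (exact permutation p = 0.8).

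**Figure D5:**
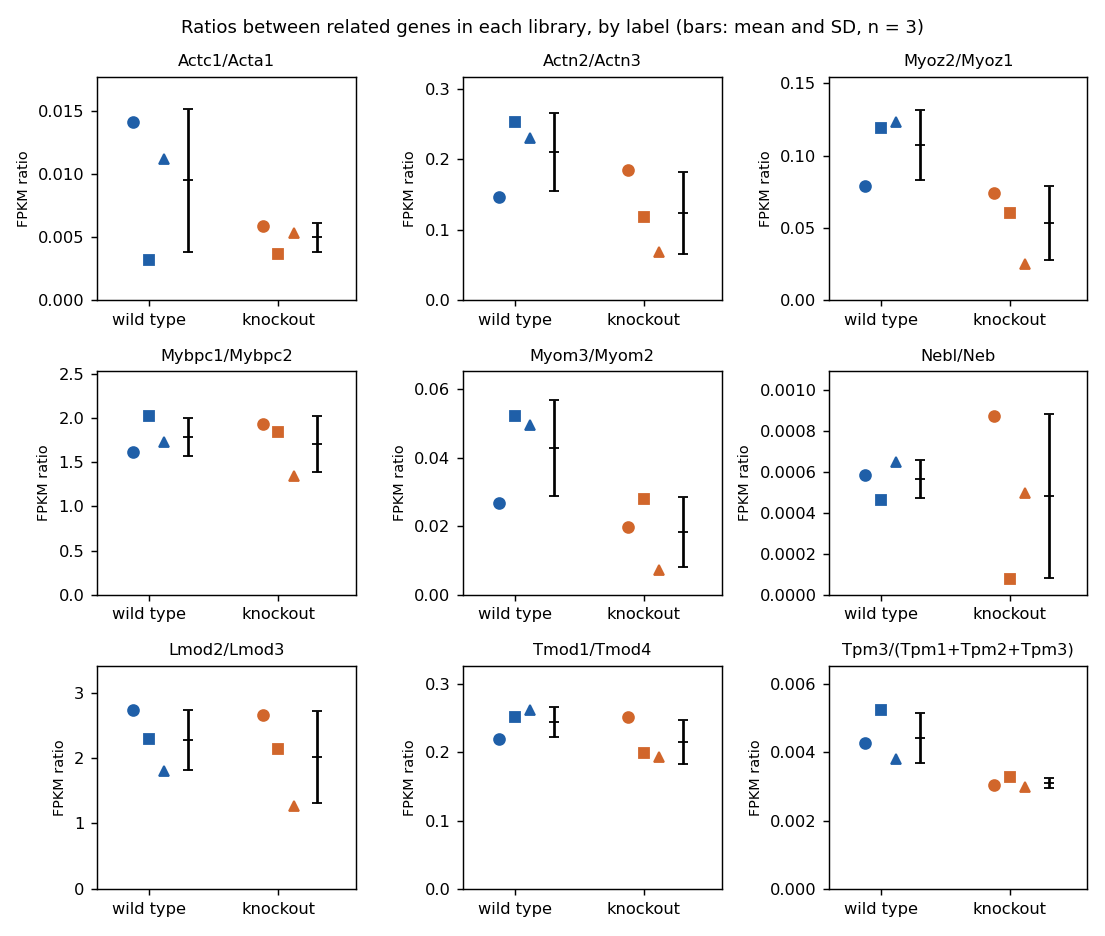
FPKM ratios of the 9 gene pairs or sets (vertical, from 0) in each library, by label; symbols are libraries 1 to 3, and bars give the mean and SD (n = 3). The labels separate in the panels of Myoz2/Myoz1 and Tpm3/(Tpm1+Tpm2+Tpm3) and overlap in the other 7.

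Other genes of the same structures were listed apart from the members, 54 in all. Of the 49 tested, none was called in either direction, 7 were higher and 42 lower under the knockout label, the median log2 difference being -0.13. An unadjusted p below 0.05 in limma was reached by 7, all lower. Of all tested genes, 56.7% were lower and 3.31% were lower at that unadjusted level. Among thin filament and actin turnover genes, 14 of 16 were lower. Abra, an actin-binding activator of serum response factor signalling, had 339.7, 166.2 and 181.4 against 200.7, 127.3 and 99.1 FPKM. Klhl40, which stabilises nebulin and Lmod3, had 49.7, 81.9 and 90.2 against 56.2, 61.5 and 49.6. In both genes the groups overlapped.

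Of the Z-disc and titin partners, 23 of 27 were lower, with a median of -0.16, and 4 did not overlap, all lower. Among all tested genes 5.64% were lower without overlap. Xirp1, an actin-binding repeat protein that binds filamin C, had 26.8, 41.6 and 40.8 FPKM under the wild-type label and 22.8, 16.9 and 13.4 under the knockout label (log2 difference -1.01, SE 0.22, unadjusted p = 0.00146 in limma). Bag3, the chaperone partner that helps clear damaged filamin, had 65.3, 82.7 and 70.5 against 64.8, 50.8 and 47.7 (log2 difference -0.42, SE 0.13, unadjusted p = 0.0134 in limma). Both had their lowest value in library 3 labelled knockout, as Flnc did. Csrp3, the muscle LIM protein, named after its values were seen, ranged most widely, at 105.4, 752.5 and 695.0 against 200.3, 137.6 and 31.4 FPKM, the same order of high and low libraries as in Myom3 except for libraries 1 and 2 labelled knockout. Of 6 tested intermediate filament genes and linkers, 5 were lower. The 2 with the smallest unadjusted p there, Vim (vimentin) and Lmna (lamin A/C), had log2 differences of -0.24 (SE 0.18) and -0.18 (SE 0.15).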

How the data were processed

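RNA-seq libraries of tibialis anterior muscle were analysed from the deposited FPKM values, 1 table per library with 41025 genes each. The submitters' processing notes name Cufflinks 2.2.1, TopHat2 2.1.1 and the mm10 build as what the authors used to make them. No source used here names the annotation release, the use of strand or filters on reads. Sample titles gave the groups and the replicate numbers. The numbers pair no samples by their labels, and deviations of same-numbered libraries correlated at 0.0236, -0.0408 and 0.0232.

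Symbols were matched for 40452 genes and not for 573. Low FPKM values stepped in whole fragments: for each of the 23559 genes above 0, a single whole length turned the 6 values into whole fragments within 0.002 of a fragment. The library totals had been taken before that, from the exon lengths of genes in GENCODE vM21 on mm10. Each total was the value that genes most often gave if their FPKM stood for a single fragment. A gene kept its exon length where this fitted, and otherwise took the smallest fitting length from 20 to 110000 bases. Genes above 0 in few libraries can fit many lengths, so their fit says little. The lengths were then compared with the mean transcript lengths of GENCODE vM21. Chi-square values per degree of freedom between pairs of libraries were 7.05 to 23.8, so none was taken for a copy of another.

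The test between labels was limma 3.58.1 (R 4.3.3), two-sided, with the trend option on log2(FPKM + 1) values of the 11383 genes that averaged 1 FPKM or more, with Benjamini-Hochberg adjustment over all of them and a threshold of 0.05. The log2 scale with a pseudocount of 1 understates the change of low genes. The script was tested on simulated data. Ratios were compared by exact two-sided permutation tests. Alternatives were median subtraction, quantile normalization, pseudocounts of 0.1 and 0.01, other filters, no trend, the replicate number as a block, limma voom on recovered fragments and leaving out each library. Lengths of longest transcripts were added after seeing the data. Intervals for low counts are exact Poisson intervals (95%).

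The members and lists were chosen with earlier results of these data known. Values per library are given for the 2 highest members of each role, members whose groups do not overlap, the 6 of smallest unadjusted p, the 4 of widest range, both genes of each ratio, and those next to the filter. Others are given by range. Of the other pathway genes, up to 2 per list with the smallest unadjusted p are named. Other software was scipy 1.17.1, numpy 2.4.6 and pandas 2.3.3 under Python 3.11.15, with matplotlib 3.10.9 for figures.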

Additional observations from a re-analysis of the deposited data

How the results depend on the processing

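No member was called under any alternative, and the smallest adjusted p of a member was 0.171. Of 540 comparisons of a member's log2 difference with an alternative (36 members, 15 settings), 510 kept their direction and 30 reversed, 24 of them on leaving out a library. The reversals fell on 14 members, whose differences were at most 0.28 in size, and 22 members had none. Beyond left-out libraries, quantile normalization gave -0.023 for Tpm1, 0.018 for Mypn and -0.025 for Mybpc1, median subtraction gave 0.030 for Tmod1 and 0.046 for Mypn, and voom gave -3.0e-05 for Mybpc1. Leaving out each library in turn gave -0.042 to 0.022 for Tmod1, -0.54 to 0.090 for Lmod2, -0.11 to 0.0026 for Lmod3, -0.14 to 0.14 for Neb, -0.0013 to 0.22 for Ttn, -0.22 to 0.036 for Tcap, -0.20 to 0.054 for Myoz3, -0.081 to 0.039 for Mypn, -0.11 to 0.012 for Des, -0.082 to 0.10 for Synm, -0.026 to 0.18 for Myom2, -0.098 to 0.14 for Mybpc1 and -0.011 to 0.050 for Unc45b. The log2 ratios ran from -0.18 to 0.087 for Mybpc1/Mybpc2, -1.53 to 0.24 for Nebl/Neb and -0.45 to 0.088 for Lmod2/Lmod3. Over all genes, leaving out a library gave 0 to 3 calls (1 without library 1 labelled wild type, 3 without library 3 of that label, 1 without library 3 labelled knockout) and 342 to 1356 genes at an unadjusted p below 0.05, the largest without library 1 labelled wild type and the counts furthest below 523 without library 3 labelled wild type (344) and library 2 labelled knockout (342). With no filter it was 987 and with a mean of at least 5 FPKM 339, where fewer genes were tested. Members at that level numbered 4 with no filter, beside 987 of 23559 genes, and 2 with no trend, beside 548 of 11383. On leaving out a library they numbered 2 to 10. The 2 were without library 3 labelled wild type, beside 344 of 11383 genes. The 10 were without library 1 of that label, beside 1356 of 11383. Members whose groups do not overlap numbered 6 to 17 on leaving out a library, 3 to 6 higher and 3 to 11 lower, and 1 lower after median subtraction or quantile normalization. The 17 were without library 1 labelled wild type, where 30.3% of tested genes did not overlap. No such share is given for median subtraction or quantile normalization. The cause of these shifts was not tested. With the replicate block, 0 genes were called, with 472 genes and 6 members at an unadjusted p below 0.05, and it changed no call. Depth limits Nebl most, with 2 to 21 per library.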
